A study of Mus musculus with 2 samples.

Results

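The Ucma chondrocytes described here are growth plate cartilage cells that carry transcripts of upper zone and matrix cartilage associated protein (Ucma) and lack Indian hedgehog (Ihh). They were chosen by their counts of unique molecular identifiers (UMIs, each standing for 1 captured RNA molecule). Kept cells had between 500 and 6000 genes with a UMI and less than 25% of their UMIs from mitochondrial genes. A kept cell was taken as a chondrocyte with at least 10 UMIs of Acan and at least 1 each of Col9a1, Col9a2 and Matn3. Of the chondrocytes, the Ucma chondrocytes had at least 3 UMIs of Ucma, no UMI of Ihh, under 1% of their UMIs from Col10a1 and fewer than 3 of 6 cell cycle genes detected. There were 3043 of them among 55783 kept cells and 9814 chondrocytes.

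The cells came from femur and tibia of C57BL/6 mice of both sexes at postnatal day 30, with the epiphysis taken off and blood cells depleted by lineage, CD45 and CD117. The Control library carried genotype Dach1OE +/f, a Dach1 transgene with a floxed stop and no Cre, and the Dach1OE library carried Apj CreERT2 - Dach1OE +/f. In Dach1OE the promoter of Aplnr (Apj), a gene of capillary endothelial cells (ECs), drives an inducible Cre that switches the transgene on, and both groups received tamoxifen soon after birth. Each group was 1 library that pooled a pair of mice, so there was no replicate library, no test was possible and library, mice and group cannot be told apart. All intervals below are 95% intervals that cover counting error only.

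The growth plate lengthens bone through a column of chondrocytes that rest, divide, enlarge and are replaced by bone. Resting and early dividing cells at its top make type II and type IX collagen and aggrecan and respond to hedgehog protein. Cells that leave the cycle make Ihh, and hypertrophic cells make type X collagen (Col10a1). Ucma encodes a small secreted protein with gamma-carboxylated glutamates that is known from the upper zone of growth plate cartilage. Hhip binds hedgehog proteins at the cell surface and restrains their signal, and H19 is an imprinted long non-coding RNA.

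Depth was close in the libraries. The tables held 28720 Control and 32028 Dach1OE cells. The median Ucma chondrocyte held 8983 UMIs of 2750 genes in Control and 8440.5 UMIs of 2630 genes in Dach1OE, and their median mitochondrial share was 7.49% and 7.23%. The libraries shared 879 barcodes among kept cells but only 1 among Ucma chondrocytes. Of the Ucma chondrocytes whose sex could be told from Xist or Y-linked UMIs, those with Xist made up 69.8% in Control (655 of them) and 50.8% in Dach1OE (659), and values by sex are therefore given beside a number of the comparisons below. The transgene's own gene, Dach1, was at 2.53 CPM (UMIs summed over the cells of a group and scaled to a total of 1000000) in Control Ucma chondrocytes and at 7.98 CPM in Dach1OE, against 5.60 and 176.5 CPM in cells with UMIs of both Cdh5 and Pecam1, which mark ECs. With each cell thinned to 2000 UMIs, a Dach1 UMI was seen in 0.662% of Control and 1.55% of Dach1OE Ucma chondrocytes, and in 1.16% and 27.3% of those ECs. The median EC held 3214 and 3102.5 UMIs, and 1945 Control and 2248 Dach1OE ECs were too shallow to thin and were left out, against 9 and 23 Ucma chondrocytes.

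Ucma chondrocytes made up 29.6% of chondrocytes in Control (1217 of 4107 cells) and 32% in Dach1OE (1826 of 5707). The difference was 2.36 percentage points (0.510 to 4.20). Among kept cells their share was 4.60% and 6.23%, a difference of 1.63 points (1.26 to 2.0). The sexes did not give the same picture. Among chondrocytes with Xist the share was 32.8% in Control and 32.4% in Dach1OE, a difference of -0.415 points (-3.31 to 2.48), and among those with Y-linked UMIs it was 24.2% and 29.8%, a difference of 5.60 points (2.44 to 8.68). The Ihh chondrocytes, which by the rule had a UMI of Ihh and no minimum of Ucma, held 36.2% and 30.4% of chondrocytes, a difference of -5.78 points (-7.68 to -3.89). It was -1.60 points (-4.49 to 1.29) among chondrocytes with Xist and -11.5 points (-14.9 to -8.02) among those with Y-linked UMIs. Shares depend on which cells a digest releases, and how many cells the tissue held was not measured.

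Ucma itself spanned 3 to 119 UMIs per cell in Control, with a median of 12, and 3 to 88 in Dach1OE, with a median of 14. Just inside the threshold, at 3 UMIs, lay 68 Control and 73 Dach1OE cells, and just outside it, at 2 UMIs, lay 56 and 69. The cells just outside were shallower, with a median of 6646 against 8594 UMIs in Control and 5078 against 6622 in Dach1OE. The gene lies on GRCm38 at chr2:4976122-4985748 on the plus strand. Summed over the cells it reached 1641 CPM in Control against 1955 CPM in Dach1OE, and the rule used these counts.

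Hhip and H19, which the rule did not use, described the cells further. Hhip stood at 125 CPM in Control and 148 CPM in Dach1OE Ucma chondrocytes. In Ihh chondrocytes it was at 7.62 and 9.77 CPM and in Col10a1-high chondrocytes at 3.36 and 2.80 CPM. Hhip was thus highest in Ucma chondrocytes of both libraries among the 5 groups of chondrocytes, and 38.5% and 42.1% of the cells had a UMI of it. After thinning to 2000 UMIs these shares were 20.4% in both libraries, against 0.290% and 0.376% in the ECs described above. H19 stood at 2379 and 2755 CPM in Ucma chondrocytes, at 906 and 1112 CPM in Ihh chondrocytes and at 336 and 406 CPM in Col10a1-high chondrocytes. Dividing chondrocytes had about as much H19, with 2431 and 2826 CPM, so that H19 did not set Ucma chondrocytes apart from them.

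**Figure D1:**
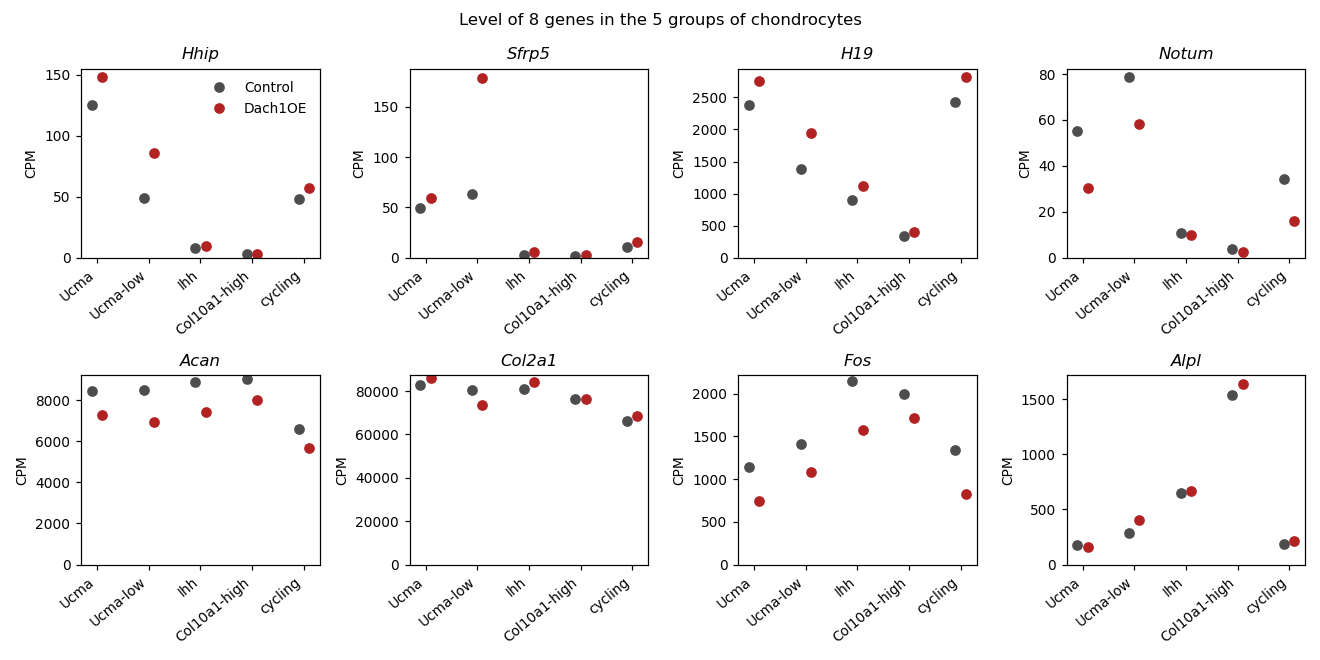
Level in CPM (y axis, linear from 0) of 8 genes in the 5 groups of chondrocytes (x axis) of the Control library (grey) and the Dach1OE library (red), 1 point per library, counting intervals not drawn. Hhip was highest in Ucma chondrocytes, with 125 and 148 CPM, and Alpl lowest there, with 178 and 158 CPM.

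The label places these cells high in the growth plate, and no position was measured. The 10 genes of the reserve zone list summed to 361 CPM in Control and 308 CPM in Dach1OE Ucma chondrocytes. The sum was lower in Ihh chondrocytes, at 248 and 208 CPM, and higher in Ucma-low chondrocytes, which passed every condition but that on Ucma, at 521 and 804 CPM. It was 378 and 317 CPM in Col10a1-high chondrocytes and 875 and 562 CPM in kept cells that were not chondrocytes, so the sum did not set Ucma chondrocytes apart. Sfrp5, a secreted Wnt antagonist, was at 48.9 and 59.2 CPM against 2.40 and 5.26 CPM in Ihh chondrocytes and 63.3 and 179 CPM in Ucma-low chondrocytes. Gli1, a transcription factor and target of hedgehog signalling, was at 35.1 and 33.8 CPM against 6.62 and 7.82 CPM in Ihh chondrocytes. Ptch1, the hedgehog receptor, was at 219 and 216 CPM against 87.7 and 82.8 CPM there. Pth1r, the receptor for parathyroid hormone-related protein, had the opposite order, with 507 and 425 CPM against 1564 and 1397 CPM. The genes of the hypertrophic side were low, with Alpl, tissue-nonspecific alkaline phosphatase, at 178 and 158 CPM against 649 and 665 CPM. From Gli1 to Alpl the values are set against Ihh chondrocytes only. The listed hedgehog and parathyroid hormone-related protein genes summed to 1075 and 1013 CPM in Ucma chondrocytes and 2433 and 2196 CPM in Ihh chondrocytes. They summed to 1078 and 1236 CPM in Ucma-low and 984 and 961 CPM in dividing chondrocytes, so their sum hardly set Ucma chondrocytes apart from those.

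Pthlh, the ligand made by resting cells, was sparse. It was at 5.78 CPM in Control and 9.70 CPM in Dach1OE, and 1.41% and 2.05% of thinned cells had a UMI of it, against 0.290% and 0.510% of the ECs. The 10 cells with most Pthlh held 54.7% and 54.9% of its UMIs. Prg4, lubricin of the joint surface, was seen in 1.08% and 0.943% of thinned Ucma chondrocytes and in 1.54% and 1.52% of ECs. Its share of cells was thus no higher than in ECs, and in Dach1OE it stood at 50.1 CPM in the Ucma chondrocytes with the smallest share of Ucma and at 2.64 CPM in those with the largest, by the bins described below. In Control, Prg4 was at 12.4 and 12.9 CPM in those bins, so the fall was seen in Dach1OE only.

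Over all 11917 genes with at least 50 UMIs in Ucma chondrocytes, 1028 (8.63%) were at least 1.5-fold above Ihh chondrocytes in both libraries and 379 (3.18%) at least 1.5-fold below. The groups differ by rule in Ihh and in the minimum of Ucma, and a cell of fewer UMIs passes a demand for no Ihh more easily. The median was 12941.5 and 12153 UMIs in Ihh chondrocytes. The values are a description for that reason. Chosen after the values were seen, genes furthest above Ihh chondrocytes were Hhip, Sfrp5, Trabd2b, Lingo1, Col15a1, Pamr1, Notum, Dact1, Sspn and Meg3. They were taken from genes with a minimum of UMIs well above 200. Their levels also had to be no lower than in kept cells that were not chondrocytes, in both libraries. Notum, an enzyme that inactivates Wnt proteins, was at 55.2 and 30.2 CPM against 10.8 and 9.91 CPM in Ihh chondrocytes. Trabd2b, a membrane protease, was at 50.9 and 50.6 CPM against 6.10 and 5.68 CPM. Among the genes furthest below were Col10a1, Sgms2, Atf3, Klf2, Rasd1, Cdkn1c, Grb14, Alpl and Zfp36. These had to reach 100 CPM in Ihh chondrocytes of both libraries and be no lower there than in kept cells that were not chondrocytes. Cdkn1c, an inhibitor of cyclin-dependent kinases that is imprinted, was at 430 and 515 CPM in Ucma chondrocytes against 2039 and 2273 CPM.

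Cells that passed all conditions but the one on Ucma were few, 169 in Control and 174 in Dach1OE, and had a median of 5021 and 4782 UMIs. Above these Ucma-low chondrocytes, 419 of 11917 genes (3.52%) stood at least 1.5-fold in both libraries and 523 (4.39%) stood below. Among the 10 genes furthest above them in the library of the smaller ratio were Cpa3, Mcpt8, Ms4a2, Prss34, Mpo, Tmem215, Arxes1, Prg2 and Rnaseh2a. Of these, 6 are genes of basophils, mast cells, eosinophils or granulocyte precursors and were carried by few cells. For Mcpt8, a basophil protease, the 10 cells with most of it held 84.2% of its UMIs in Control and 88.9% in Dach1OE. Tmem215 was spread more widely, with a UMI in 13.5% and 10.3% of the cells and a level of 19.4 and 16.0 CPM against 0.192 and 0.128 CPM in kept cells that were not chondrocytes. Arxes1 was at 7.95 and 8.24 CPM.

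Within the Ucma chondrocytes, other genes ran with the amount of Ucma. The cells of each library were divided into 4 bins of equal size by the share of Ucma in their UMIs, which was 542 CPM in the lowest and 3629 CPM in the highest bin of Control and 671 and 4046 CPM in Dach1OE. Of 8766 genes with at least 200 UMIs, 245 (2.79%) were at least 1.5-fold higher in the highest bin of both libraries and 277 (3.16%) at least 1.5-fold lower. Ucma, which cut the bins, is itself among the higher genes. The highest bin was shallower, with a median of 7415.5 against 10196 UMIs in Control and 7428 against 9755 in Dach1OE. Because the rule asked for at least 3 UMIs of Ucma, only cells of many UMIs could have a very small share of it. Part of this order in depth thus follows from the rule. Hhip climbed from 43.8 CPM in the lowest bin over 79.7 and 134 to 283 CPM in the highest in Control, and from 67.1 over 105 and 148 to 305 CPM in Dach1OE. Fibronectin (Fn1) lay at 806 CPM in the lowest and 3673 CPM in the highest bin of Control, and at 811 and 3591 CPM in Dach1OE. The gene of the largest ratio in the library where it was smaller was Pappa2, a protease that cuts insulin-like growth factor binding proteins. It was at 4.66 and 44.2 CPM in Control and at 7.73 and 55.1 CPM in Dach1OE. R3hdml, Cilp2, Tnfaip8l3, Cntfr, Gpr37l1, Mirg and Trabd2b were also higher in the highest than in the lowest bin of both libraries, although R3hdml, Cilp2 and Mirg did not climb at every step in Control.

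Cartilage matrix genes differed in their order over the bins. Matn1, a matrix protein that links collagen and proteoglycan, went from 1162 CPM in the lowest to 619 CPM in the highest bin of Control and from 1225 to 704 CPM in Dach1OE. Mgp went the other way, from 2799 to 4461 CPM and from 1810 to 3114 CPM, and so did Cytl1, with log2 ratios of the highest over the lowest bin of 1.37 and 2.42. Col2a1 had ratios of 0.22 in both libraries. Of the genes that the rule used, Col9a1 had -0.16 and -0.13 and Acan -0.30 and -0.23. Sox9, the transcription factor of cartilage, had -0.11 and 0.015. Among the 10 genes furthest lower in the highest bin, by the library of the smaller ratio, were Bglap2, Car3, Bglap3, Bglap, Cbln2, Hal, Cpa3, Ubd and Col1a1, of which some are known from osteoblasts and others are not. Osteocalcin (Bglap2) lay lower at the top, with 300 CPM in the lowest and 27.0 CPM in the highest bin of Control and 335 and 16.1 CPM in Dach1OE. Type I collagen (Col1a1), the collagen of bone, was at 3216 and 784 CPM in Control and at 7418 and 762 CPM in Dach1OE. Osteopontin (Spp1), also made by osteoblasts, had the opposite order, with 67.2 and 211 CPM in Control and 88.7 and 267 CPM in Dach1OE, and Alpl had log2 ratios of -0.26 and -0.33. The osteoblast markers summed to 6605 CPM in all Ucma chondrocytes of Control and 7879 CPM in Dach1OE, against 63700 and 77429 CPM in kept cells that were not chondrocytes, and their part in the order of the bins was not tested. In cells with Xist the osteoblast sum was 5222 and 5127 CPM, a log2 ratio of Dach1OE over Control of -0.03 (-0.05 to -0.003), and in cells with Y-linked UMIs 5151 and 7081 CPM, a ratio of 0.46 (0.43 to 0.49).

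**Figure D2:**
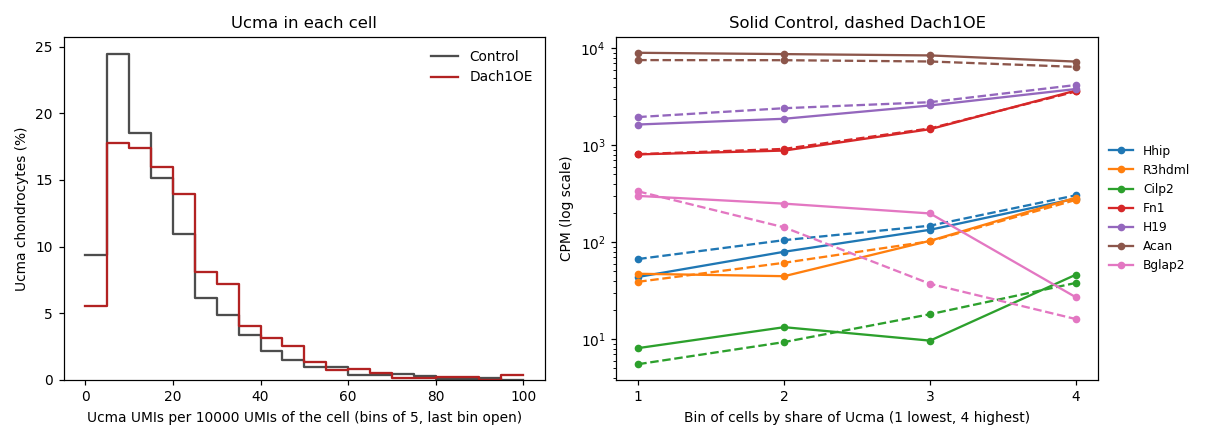
Left: Ucma UMIs per 10000 UMIs of a cell (x axis) against the share of Ucma chondrocytes in percent (y axis), Control in grey and Dach1OE in red. Right: CPM on a log axis of 7 genes in the 4 bins of cells by share of Ucma, with solid lines for Control and dashed lines for Dach1OE, where Hhip climbed from 43.8 to 283 CPM in Control and Bglap2 went from 300 to 27.0 CPM.

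Between the libraries, the Ucma chondrocytes of Dach1OE had levels of nearly all cartilage matrix genes within 1.5-fold of Control and lower levels of most immediate early genes. Of the 11917 genes compared, 160 (1.34%) were at least 1.5-fold higher in Dach1OE and 583 (4.89%) at least 1.5-fold lower, and the median log2 ratio of Dach1OE over Control was -0.02. In other chondrocytes 2.08% of 14408 genes were higher and 4.23% lower, and in kept cells that were not chondrocytes 2.93% of 17624 were higher and 7.43% lower. Of the 583 lower genes, 402 had a lower level in Ucma chondrocytes than in those other kept cells of Control, a share of 69.0% beside 67.9% of all genes compared. Only 24 of the lower and 2 of the higher genes reached 100 CPM in the library where they were higher.

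No cartilage collagen differed by 1.5-fold. All 13 of the list that could be compared had log2 ratios between -0.11 and 0.14, with a median of 0.04. The rule asked for UMIs of Acan, Col9a1, Col9a2, Matn3 and Ucma in both libraries, so the levels of these genes were partly set by the choice of cells. Col2a1, the main fibril collagen of cartilage, was at 82868 CPM in Control and 86195 CPM in Dach1OE, a log2 ratio of 0.06 (0.05 to 0.06). Of 29 genes of the cartilage matrix that are not collagens, 1 was lower by 1.5-fold and none higher, with a median of -0.07, beside the 4.89% and 1.34% of all genes. Acan, the large proteoglycan of cartilage, was at 8446 and 7262 CPM, a log2 ratio of -0.22 (-0.23 to -0.21), and matrix Gla protein (Mgp), an inhibitor of calcification, at 3282 and 2248 CPM, a ratio of -0.55 (-0.57 to -0.52). Mgp differed more in cells with Xist, where its log2 ratio was -0.78, than in cells with Y-linked UMIs, where it was -0.30. The single member past the fold was Cytl1, a secreted protein of cartilage, at 32.1 and 19.6 CPM, and in cells with Xist its log2 ratio was 0.18.

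Of the enzymes of proteoglycan synthesis, 0 of 16 were past 1.5-fold, with a median of -0.02, and of 23 genes of the endoplasmic reticulum and secretion 0 were past it, with a median of 0.01. The sexes differed in the secretion list, with a median of 0.11 in cells with Xist and -0.10 in cells with Y-linked UMIs. In the latter 3 of 23 were lower, beside 4.72% of all genes, and in the former 0. None of 84 ribosomal protein genes and none of 13 mitochondrial transcripts passed 1.5-fold. Among 23 cartilage transcription factors, Runx1 was lower, at 22.8 and 14.4 CPM, and none was higher, where 4.89% of all genes were lower and 1.34% higher. The log2 ratio of Runx1 lay between -1.01 and -0.54 over the settings, so the call was lost in some. By sex, 0 of 21 were higher and 1 lower with Xist, beside 2.28% and 4.3% of all genes. With Y-linked UMIs 1 of 21 was higher and 2 were lower, beside 2.47% and 4.72%. Sox9 was at 1364 and 1284 CPM, Sox5 at 189 and 192 CPM and Sox6 at 110 and 107 CPM. Those 3 factors, which together hold the cartilage programme, therefore had log2 ratios between -0.09 and 0.02.

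Hedgehog and parathyroid hormone-related protein genes lay within 1.5-fold in the libraries except for the ligand Pthlh. Of 12 compared, Pthlh was higher, with a log2 ratio of 0.75 (0.32 to 1.19) on 64 and 153 UMIs, and none was lower, beside 1.34% of all genes higher and 4.89% lower. In cells with Xist 1 of 12 was higher and 1 lower, beside 2.28% and 4.3% of all genes. In cells with Y-linked UMIs 2 of 11 were higher and 1 lower, beside 2.47% and 4.72%. Ptch1 had a log2 ratio of -0.02 (-0.09 to 0.06) and Gli1 of -0.05 (-0.25 to 0.14). Hhip had a ratio of 0.24 (0.15 to 0.34), with -0.08 (-0.23 to 0.06) in cells with Xist and 0.44 (0.24 to 0.64) in cells with Y-linked UMIs. The difference between the sexes was not tested.

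In the Wnt list of 20 genes, 1 was lower and 1 higher, beside 4.89% and 1.34% of all genes, so that the share of lower genes was near that of all genes. The lower one was Notum, at 55.2 CPM in Control and 30.2 CPM in Dach1OE, a log2 ratio of -0.87 (-1.04 to -0.69), with -0.64 in cells with Xist and -1.02 in cells with Y-linked UMIs. A UMI of Notum was found in 25.1% of Control and 16.5% of Dach1OE cells, and its log2 ratio was -0.59 in other chondrocytes and 0.15 in kept cells that were not chondrocytes. The higher one was the receptor Fzd6, on 35 and 87 UMIs. Rspo4, a secreted activator of Wnt signals that stands outside the list, was at 132 and 84.0 CPM, a log2 ratio of -0.66 (-0.76 to -0.55), and hardly occurred outside chondrocytes, with 1.19 and 1.06 CPM there. Over the settings the log2 ratio of Fzd6 lay between 0.45 and 1.24 and that of Rspo4 between -0.79 and -0.48. Both fell short of 1.5-fold in some setting.

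Of the other growth factor lists, FGF signalling had 2 of 10 genes lower (Fgf1 and Spry1), BMP and TGF-beta signalling 2 of 28 (Bmp2 and Grem1), and the axis of insulin-like growth factor and growth hormone 1 of 14 lower (Igfbp4) and 1 higher (Igfbp6), beside 4.89% of all genes lower and 1.34% higher. Of these, Igfbp4 was the one with many UMIs, at 303 CPM in Control and 189 CPM in Dach1OE, and its log2 ratio of -0.68 was 0.054 once cells with stromal or mural UMIs were left out. It was -0.25 in cells with Xist, short of the fold, and -1.17 in cells with Y-linked UMIs, and the sum of its list had 0.06 and -0.13. Spry1 and Grem1, inhibitors of FGF and BMP signals on fewer than 80 UMIs per library, changed sign without cells with such stromal or mural UMIs too. Of the insulin-like growth factor list, 2 of 12 were higher and 0 lower in cells with Xist, beside 2.28% and 4.3% of all genes. In cells with Y-linked UMIs 1 of 11 was higher and 4 were lower, beside 2.47% and 4.72%. The log2 ratio of Igfbp6 lay between 0.35 and 1.39 over the settings, so that call was lost in some. Fgfr3, the receptor that restrains growth plate chondrocytes, was at 621 and 611 CPM, a log2 ratio of -0.02 (-0.07 to 0.02). None of 16 imprinted genes passed the fold, with a median of 0.13. H19, at 2379 and 2755 CPM, had a log2 ratio of 0.21 (0.19 to 0.23) in Ucma chondrocytes, with 0.18 and 0.21 in the sexes, and of 1.93 in kept cells that were not chondrocytes.

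Of 28 genes of hypoxia and glycolysis, 1 was higher by 1.5-fold and none lower, beside 1.34% and 4.89% of all genes, and in cells with Y-linked UMIs 0 of 27 were higher and 1 lower. The median log2 ratio was 0.13, with 0.08 in cells with Xist and 0.04 in cells with Y-linked UMIs, and it was 0.13 in kept cells that were not chondrocytes too. Slc16a3, which exports lactate, was at 60.9 CPM in Control and 94.1 CPM in Dach1OE, a log2 ratio of 0.63 (0.50 to 0.76), with 0.74 and 0.54 in cells with Xist and with Y-linked UMIs. Gapdh was at 506 and 619 CPM and Pgk1 at 781 and 903 CPM, both enzymes of glycolysis and both short of the fold. Ndufa4l2, a mitochondrial protein known to be induced under low oxygen and not on the list, was at 246 and 401 CPM, a ratio of 0.70 (0.64 to 0.77). It was also higher in other chondrocytes, by 0.47, and in kept cells that were not chondrocytes, by 0.92 on the log2 scale. The other higher gene above 100 CPM, Rcc1, which loads the GTPase Ran, was at 151 and 227 CPM, with a log2 ratio of 0.94 in cells with Xist and 0.14 in cells with Y-linked UMIs.

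**Figure D3:**
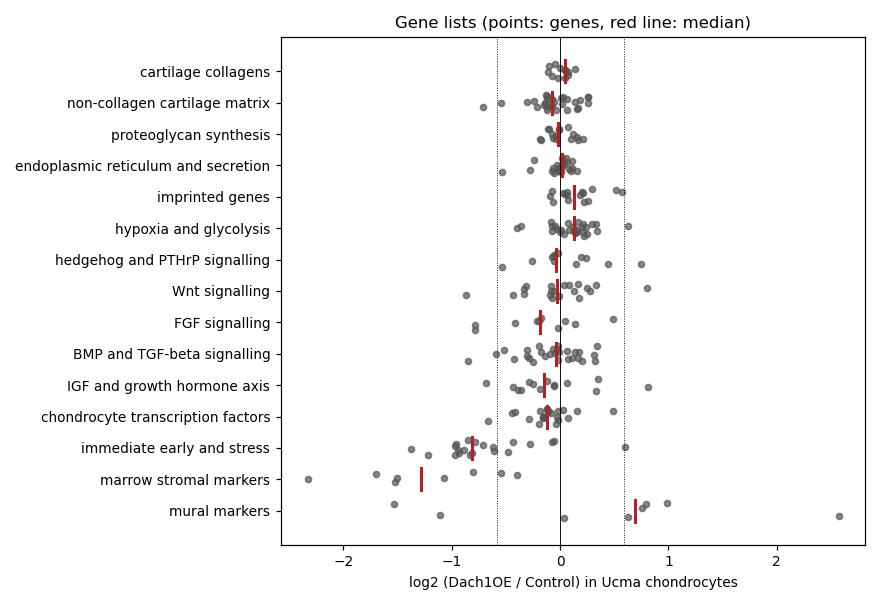
Log2 ratio of Dach1OE over Control in Ucma chondrocytes (x axis) for the genes of each list (y axis), 1 point per gene with at least 50 UMIs, with the list median as a red line and 1.5-fold in either direction as dotted lines. The immediate early and stress list has a median of -0.81 and the marrow stromal markers of -1.29, and the cartilage collagens lie between -0.11 and 0.14.

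Most immediate early and stress genes on the list were lower in Dach1OE. Such genes are transcribed within minutes of a signal at the cell surface or of stress and encode transcription factors (Fos, Fosb, Jun, Junb, Jund, Egr1, Atf3, Klf2), proteins that restrain the response (Zfp36, Dusp1, Btg2, Socs3), the nuclear protein Ier2 and heat shock proteins (Hspa1a, Hspa1b). Of 21 on the list, 15 were lower by 1.5-fold and 1, Mt2, was higher, where 4.89% and 1.34% of all genes were, and the median was -0.81. The list was known from earlier results of these data, so its count describes these libraries.

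Fos was at 1142 CPM in Control and 744 CPM in Dach1OE, a log2 ratio of -0.62 (-0.65 to -0.58). Jun was at 698 and 392 CPM, a ratio of -0.83 (-0.88 to -0.78), and Egr1 at 391 and 223 CPM, a ratio of -0.81 (-0.88 to -0.75). The lowest ratio belonged to Zfp36, which encodes a protein that destabilises messenger RNAs, at 394 and 152 CPM, a ratio of -1.37 (-1.44 to -1.30). Not all of the list took part. Klf4 was at 180 and 170 CPM, and Mt2 rested on 46 and 99 UMIs and had ratios below 0 in both sexes.

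Summed over the list, the genes reached 5337 CPM in Control and 3163 CPM in Dach1OE, a log2 ratio of -0.75 (-0.77 to -0.74). In cells with Xist the ratio was -0.76, with 14 of 20 genes lower and 0 higher by 1.5-fold beside 4.3% and 2.28% of all genes in those cells. In cells with Y-linked UMIs it was -0.86, with 17 of 20 lower and 0 higher beside 4.72% and 2.47%. The sum per cell was skewed, with a median of 19 and an upper quartile of 61.9 per 10000 UMIs in Control, against 12 and 31.3 in Dach1OE. The lower quartiles were 7.55 and 5.53. The libraries therefore differed more in the upper part of their cells than in the lower part.

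The other chondrocytes differed between the libraries in the same direction. The summed list had a log2 ratio of -0.69 in Ihh, -0.59 in Ucma-low, -0.43 in Col10a1-high and -0.89 in dividing chondrocytes. In kept cells that were not chondrocytes it was 0.07, and 0 of the 21 genes were past 1.5-fold there, where 7.43% of all genes were lower. Zfp36 had a log2 ratio of -0.81 in other chondrocytes and -0.16 outside them, and Fos one of -0.46 and 0.37. The summed list was lower in Ucma chondrocytes than in Ihh chondrocytes of either library, with 5337 against 11682 CPM in Control and 3163 against 7264 CPM in Dach1OE. How the tissue of each library was handled was not measured and cannot be told apart from group, and the cause of the lower ratios was not tested.

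**Figure D4:**
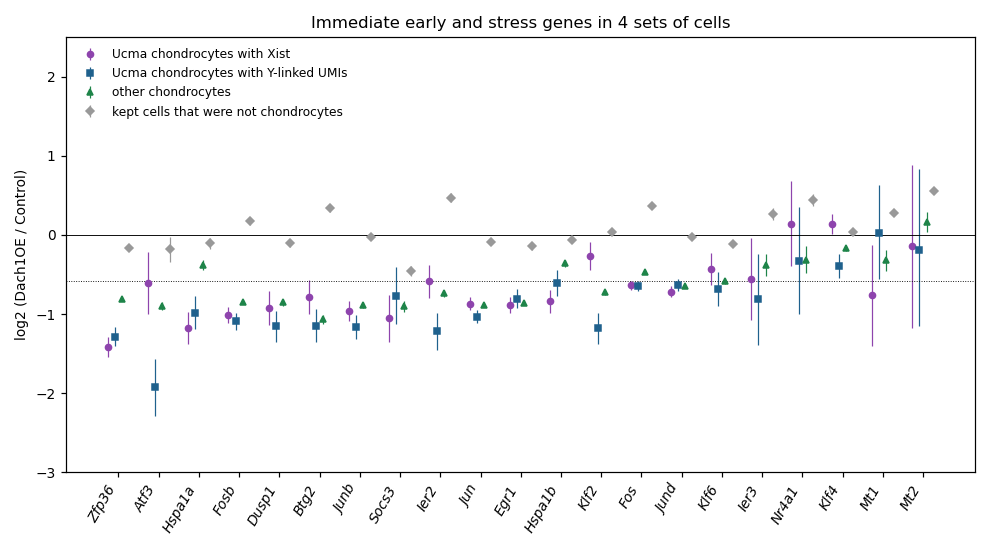
Log2 ratio of Dach1OE over Control (y axis) for the 21 immediate early and stress genes (x axis) in Ucma chondrocytes with Xist, in those with Y-linked UMIs, in other chondrocytes and in kept cells that were not chondrocytes, with 95% counting intervals and a dotted line at 1.5-fold lower. The summed list lay at -0.76, -0.86, -0.68 and 0.07 in these sets of cells.

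The stretches before 3 of the lower genes, Dusp1, Btg2 and Zfp36, are shown because they hold a cyclic AMP response element or a CArG box. RefSeq promoter windows on GRCm38.p6 were searched for 19 of the 21 genes, and Egr1 and Ier2 were not searched. Searched over the 250 bases before the start, on both strands, were the cyclic AMP response element TGACGTCA and the CArG box, the site of serum response factor. The first occurs in 1.55% and the second in 1.47% of 32851 such windows. In capitals below are the element of Dusp1, a phosphatase of MAP kinases, beginning 143 bases before the start, that of Btg2, an antiproliferative gene, at 166 bases, and the CArG box of Zfp36 at 58 bases.
Dusp1, chr17:26508473-26508722, minus strand: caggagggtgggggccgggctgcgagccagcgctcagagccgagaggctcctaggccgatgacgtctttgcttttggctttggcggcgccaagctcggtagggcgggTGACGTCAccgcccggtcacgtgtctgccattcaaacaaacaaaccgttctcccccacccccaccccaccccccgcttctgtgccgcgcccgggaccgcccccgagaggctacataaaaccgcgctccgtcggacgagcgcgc
Btg2, chr1:134079156-134079405, minus strand: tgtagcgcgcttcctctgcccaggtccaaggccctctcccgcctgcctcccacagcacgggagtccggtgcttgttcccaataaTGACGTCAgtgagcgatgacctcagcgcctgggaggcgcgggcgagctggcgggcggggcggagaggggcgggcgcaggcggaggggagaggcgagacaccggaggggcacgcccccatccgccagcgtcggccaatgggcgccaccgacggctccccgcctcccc
Zfp36, chr7:28379229-28379478, minus strand: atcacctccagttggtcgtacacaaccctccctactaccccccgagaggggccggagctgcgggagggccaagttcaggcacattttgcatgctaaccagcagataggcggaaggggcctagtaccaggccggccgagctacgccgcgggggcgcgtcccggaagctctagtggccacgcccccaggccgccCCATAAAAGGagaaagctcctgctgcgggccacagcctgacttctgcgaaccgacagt
Neither the element nor the box was in the windows of the other genes searched. Motifs of SOX factors, also searched, occur in 25.2% of all windows and were in those of Jund and Socs3. A match describes the sequence and does not show that a factor was bound.

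Fxyd3, which encodes a small regulator of the sodium pump, was among the genes of lowest ratio. It was at 239 CPM in Control and 76.2 CPM in Dach1OE, a log2 ratio of -1.65 (-1.75 to -1.55), with -1.55 and -1.78 in the sexes. A UMI was found in 59.7% of Control and 30.9% of Dach1OE cells. Outside chondrocytes it was at 5.85 and 5.54 CPM, and in other chondrocytes its ratio was -0.87. Neat1, a long non-coding RNA of the nucleus, was at 391 and 218 CPM, a ratio of -0.84 (-0.91 to -0.78), and at 139 and 138 CPM outside chondrocytes.

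By the rule for named genes, the 10 lowest ratios among genes with at least 200 UMIs and the same direction in both sexes were those of Gpm6a, Cd36, Lepr, Fxyd3, Lpar6, Cxcl12, Adipoq, Bglap3, Zfp36 and Ackr4. Except for Fxyd3 and Zfp36, these had higher levels in kept cells that were not chondrocytes than in Ucma chondrocytes and lower levels in Dach1OE there too. Cxcl12, a chemokine of marrow stromal cells, was at 385 CPM in Control and 134 CPM in Dach1OE Ucma chondrocytes, and at 4118 and 1698 CPM in the other kept cells. The 10 cells with most of it held 43.8% and 57.3% of its UMIs. All 8 marrow stromal markers summed to 649 CPM in Control and 254 CPM in Dach1OE Ucma chondrocytes, with 6 of 8 lower by 1.5-fold beside 4.89% of all genes, and to 6797 and 2855 CPM in the other kept cells, with 7 of 8 lower. The log2 ratio of the sum in Ucma chondrocytes was -0.73 in cells with Xist, with 4 of 8 lower, and -2.39 in cells with Y-linked UMIs, with 6 of 7 lower. None of the markers was at 0.

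Among the 10 highest ratios were those of Mmp9, Rgs5, Eln, Sema7a, Fbln2, Myh11, Prg4, Olfml2a and Clca3a1. Those of Mmp9, Sema7a, Fbln2, Myh11 and Olfml2a stayed above 0 but fell short of 1.5-fold in some setting. Their lowest log2 ratios were 0.53, 0.17, 0.48, 0.21 and 0.55. The log2 ratio of Prg4, 0.97, was below 0 in 3 of 20 other settings, down to -0.62 without cells with blood or endothelial UMIs. Here too, few cells carried most of the UMIs of many genes. For Mmp9, the gelatinase of osteoclasts, the 10 cells with most of it held 91.5% of its UMIs in Dach1OE, and its level went from 3.16 to 31.2 CPM. Rgs5 and Myh11, of mural cells, were at 13.9 and 82.6 CPM and at 6.41 and 12.7 CPM. The 8 mural markers summed to 123 and 203 CPM, with 5 higher and 2 lower beside 1.34% and 4.89% of all genes, and to 2115 and 2605 CPM in the other kept cells. The log2 ratio of their sum was 1.05 in cells with Xist and 0.24 in cells with Y-linked UMIs.

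The counts of the remaining lists stand beside 1.34% of all genes higher and 4.89% lower. Of 9 reserve zone genes, Pthlh was higher and Apoe lower. In cells with Xist 2 of 8 were higher and 2 lower, and with Y-linked UMIs 0 of 7 were higher and 3 lower. Of 15 prehypertrophic and hypertrophic genes Dmp1 was higher and Ibsp and Phex lower. By sex this was 0 of 14 higher and 1 lower with Xist, and 1 of 14 higher and 2 lower with Y-linked UMIs. Dmp1 and Ibsp are also on the list of osteoblast markers, whose sums are given above. Dmp1 and Phex were not among the genes followed over the settings. Over the settings, the log2 ratio of Apoe lay between -0.92 and -0.44 and that of Ibsp between -1.43 and -0.105. Both calls were thus lost in some setting. Shares of all genes by sex are given above. Of 8 genes of the articular surface, Gdf5 and Prg4 (with the exceptions above) were higher and Cilp and Thbs4 lower, each with at least 55.1% of its UMIs in 10 cells of either library. Gas6 was the 1 of 8 vitamin K-dependent proteins and enzymes that was lower, at 58.5 and 33.1 CPM. Its log2 ratio lay between -1.28 and -0.24 over the settings, so the call was lost in some. Of that list, 3 of 8 were lower in cells with Xist and 2 of 8 in cells with Y-linked UMIs. Of 16 matrix proteinases and inhibitors, Mmp9 was higher and Adamts5, an aggrecanase, and Serpina1a were lower, Adamts5 at 36.2 and 18.2 CPM. One gene each was lower among 15 clock genes (Bhlhe40), 18 S phase genes (Gins2) and 13 genes of G1 control (Cdkn1a), and none passed the fold among 15 redox genes and 6 interferon response genes. By sex some did. Of 15 redox genes 2 were higher in cells with Xist and 1 was lower in cells with Y-linked UMIs. Of 5 interferon response genes compared in each sex, 2 were lower in cells with Y-linked UMIs and 0 in cells with Xist.

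At least 3 UMIs of 23 blood, erythroid and endothelial markers were found in 182 Control and 216 Dach1OE Ucma chondrocytes, or 15.0% and 11.8%. The endothelial markers summed to 240 and 230 CPM, the haematopoietic markers to 28.6 and 33.3 CPM and the erythroid markers to 35 and 28.3 CPM. Dach1, Egfl7 and Car2 count in these sums but were not among the 23 markers, and the endothelial sum holds Dach1, the transgene's own gene. The haematopoietic sum went from 42.1 to 8.27 CPM in cells with Xist, a log2 ratio of -2.35 (-2.83 to -1.89), and from 13.2 to 55.2 CPM in cells with Y-linked UMIs, a ratio of 2.06 (1.58 to 2.59). Among these markers, S100a8 had no UMI in Control, and S100a9 had 80 UMIs in Dach1OE, all of them in its 10 leading cells. The part of such RNA in the ratios above was not tested gene by gene.

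**Figure D5:**
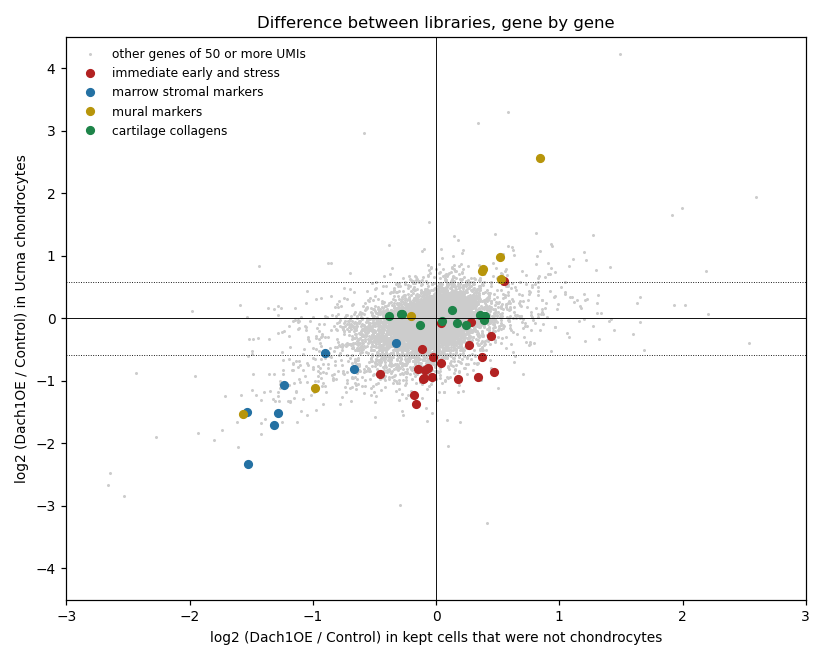
Log2 ratio of Dach1OE over Control in kept cells that were not chondrocytes (x axis) against that in Ucma chondrocytes (y axis), 1 point per gene with at least 50 UMIs in Ucma chondrocytes, with dotted lines at 1.5-fold. Marrow stromal markers (blue) are below 0 on both axes, with medians of -1.26 and -1.29, and the immediate early and stress genes (red) have medians of -0.03 and -0.81.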

How the data were processed

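Single-cell RNA sequencing was run on the BD Rhapsody system, on 1 Control and 1 Dach1OE library. The authors deposited whole-number UMI counts per cell and gene after recursive substitution error correction (RSEC), with raw UMIs beside them, made per the file headers with the BD Rhapsody WTA Analysis Pipeline 1.11, GRCm38 and GENCODE vM19. Intronic reads were counted, and whether strand was used is not given in the sources used here, so overlapping and antisense genes are uncertain. Coordinates are 1-based, from GENCODE on the same build.

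RSEC-adjusted counts were used without normalization, summed over the cells of a group and divided by their total (CPM). Levels have exact Poisson intervals, log2 ratios exact conditional binomial intervals, shares Clopper-Pearson and their differences Newcombe intervals, all at 95%. A gene was compared with at least 50 UMIs over both libraries and called at 1.5-fold. No p-value was computed. Doublets were not called. Alternatives without cells with UMIs of other types stand in for that in part, and the one of at most 30000 UMIs left out no Ucma chondrocyte. Members, 30 gene lists and rules were chosen with earlier results of these data known. Named genes were those of the rule and label, listed genes, the 10 highest and 10 lowest ratios among genes with at least 200 UMIs and the same direction in both sexes (Xist, Tsix and Y-linked genes left out), and the 10 genes furthest above Ucma-low chondrocytes. Others were chosen after their values were seen: genes furthest from Ihh chondrocytes, genes that ran with Ucma, and called genes that reached 100 CPM. Some genes that these rules name are not reported here. The steps ran in Python 3.11.15 with scipy 1.17.1, numpy 2.4.6 and pandas 2.3.3, and were tested on simulated data. The edgeR and DESeq2 packages gave only scaling factors.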

Additional observations from a re-analysis of the deposited data

Results flagged for a closer look

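In 4 genes the log2 ratio of Dach1OE over Control had opposite signs in Ucma chondrocytes with Xist and in those with Y-linked UMIs, with both counting intervals clear of 0, and the difference between the sexes was not tested. Klf4, an immediate early transcription factor, had 0.14 (0.01 to 0.27) in cells with Xist and -0.39 (-0.55 to -0.24) in cells with Y-linked UMIs. Col2a1 had -0.014 (-0.020 to -0.0086) and 0.18 (0.17 to 0.18), on very many UMIs. Mpo had -3.96 (-5.12 to -2.99) and 1.18 (0.33 to 2.13). Prg2 had -4.86 (-5.41 to -4.36) and 2.79 (1.61 to 4.28), and 98.3% of its UMIs in Control lay in 10 cells. Within each sex the comparison probably sets 1 mouse against 1, so that sex and mouse cannot be told apart.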

How the results depend on the processing

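The difference in the share of Ucma chondrocytes among kept cells was above 0 in every setting run, but its interval held 0 for cells with Xist. It was 2.16 percentage points with mitochondrial UMIs under 10%, 3.04 after thinning to 5000 UMIs and 2.37 for cells of at least 4000 UMIs. The thinning left out 16473 Control and 17103 Dach1OE kept cells of fewer UMIs, so its shares are of deeper cells. By sex the difference was 0.465 (-0.243 to 1.18) for cells with Xist and 3.81 for cells with Y-linked UMIs. Among chondrocytes the difference was -0.415 points for cells with Xist and 5.60 for cells with Y-linked UMIs. The number of higher genes was 749 with at least 10 UMIs per gene, 38 with at least 200, 1336 with no minimum and 277 with the sexes weighted equally, and that of lower genes was 1743, 152 and 3043 in the first 3 of these settings. TMM and DESeq2 size factors gave 213 and 216 higher and 483 and 478 lower genes. The 15 lower immediate early and stress genes were below 0 in all 20 settings, and 12 to 15 of them stayed past 1.5-fold. These 15 were picked by their main ratio in the same cells. The setting of at most 30000 UMIs and those with another minimum of UMIs per gene left their ratios unchanged.

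Some genes changed sign, and the cause was not tested. Without cells with blood or endothelial UMIs the log2 ratio was -0.62 for Prg4, 0.43 for Ms4a2, 1.02 for Mpo, 1.72 for Prg2 and 0.26 for Kcnj8. With at least 10 UMIs of Ucma it was 0.66 for Ms4a2, 1.40 for Mpo, 2.31 for Prg2 and 0.27 for Grem1. In cells with Y-linked UMIs it was 1.18 for Mpo, 2.79 for Prg2 and -0.19 for Mt2, and in cells with Xist -0.14 for Mt2, 0.18 for Cytl1 and 0.081 for Grem1. With each cell given the same weight Prg4 had -0.14, and after thinning Grem1 had 0.086. In the settings added after the data were seen, leaving out cells with stromal or mural UMIs gave -0.19 for Prg4, 0.054 for Igfbp4, 0.62 for Spry1 and 0.030 for Grem1, and equal weight of the sexes gave -0.16 for Mt2. No paired analysis was possible because each group was 1 library with no replicate number. With 1 library per group, the spread between mice is unknown, and genes of few UMIs or few cells are the least certain.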
